A study of Homo sapiens with 10 samples.

Results

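The MEIS, PKNOX (also called PREP) and PBX genes encode homeodomain proteins of the TALE class, which bind DNA together with HOX proteins. The 8 genes described here are MEIS1, MEIS2, MEIS3, PKNOX1, PKNOX2, PBX2, PBX3 and PBX4. They were taken by symbol from a table of 58216 gene identifiers, all 8 were found, and all 8 passed the filter on low counts. RNA was sequenced from 10 libraries of TREx293 cells, a human embryonic kidney line (HEK293) with a tetracycline repressor and a site for inserting 1 construct. The 5 groups of 2 libraries are cells with an MN1-BEND2 knockin (MN1-BEND2), an MN1-CXXC5 knockin (MN1-CXXC5), an MN1 knockin (MN1), a BEND2 knockin (BEND2), and wild-type cells (CTRL). The series asks what the MN1-BEND2 fusion, an oncogenic fusion of astroblastoma, does to transcription, and the other knockins allow the fusion to be set against its unfused parts and against a second MN1 fusion.

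Constructs carried an HA epitope tag, were placed in the same vector and site, were selected with blasticidin and hygromycin, and were switched on with doxycycline. The labels leave unsaid whether the CTRL cells were also given doxycycline, how long induction lasted, and whether a line was 1 clone or a pool. They also leave unsaid if both libraries of a group were grown as separate cultures, and p-values therefore measure the spread between these libraries, which may be technical. In bulk RNA, a difference in RNA per cell and a difference in the share of cells that make it cannot be told apart.

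MEIS and PKNOX proteins form a pair with a PBX protein, and this pair gives HOX proteins, which on their own read short and common DNA sequences, longer and more selective binding sites. PBX proteins are held in the cytoplasm when they lack a MEIS or PKNOX partner and move to the nucleus with one. MEIS and PKNOX proteins compete for the same PBX surface and can have opposite effects on growth. MEIS1 cooperates with HOXA9 in acute leukaemia, and in mouse bone marrow the leukaemia driven by MN1 depends on Meis1. In the kidney lineage, from which HEK293 cells were derived, HOX and TALE genes are part of the patterning programme.

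The libraries held 15914424 to 26799613 counts. Of the construct genes, MN1 and BEND2 went with the labels, and CXXC5 was highest in MN1-CXXC5 cells but also raised in MN1-BEND2 cells. MN1 had 291 and 291 CPM (counts scaled to a common library total) in MN1-BEND2 cells, 128 and 128 CPM in MN1-CXXC5 cells, 328 and 325 CPM in MN1 cells, 5.39 and 4.93 CPM in BEND2 cells, and 3.91 and 3.81 CPM in CTRL cells. BEND2 had 394 and 407 CPM in MN1-BEND2 cells, 390 and 399 CPM in BEND2 cells, and at most 0.573 CPM elsewhere. CXXC5 had 55.2 and 61.9 CPM in MN1-CXXC5 cells and 22.9 and 21.9 CPM in MN1-BEND2 cells. It had 13.6 and 13.4 CPM in CTRL, 12.9 and 12.4 CPM in BEND2, and 8.36 and 9.1 CPM in MN1 cells. These counts do not separate construct reads from reads of the cell's own gene. Of the 7 HEK293 markers, VIM lay between 349 and 534 CPM, KRT8 between 105 and 377 CPM and NEFL between 156 and 551 CPM in the 10 libraries. INA lay between 60.4 and 105 CPM, KRT18 between 38.7 and 69.9 CPM, and NEFM only between 2.24 and 5.62 CPM. PAX2 had 25.2 and 26.1 CPM in MN1-CXXC5 cells and 2.95 to 8.61 CPM in the other 8 libraries. Of 10 salivary gland and squamous epithelium genes, which these cells should lack, the summed level was 84.4 CPM in MN1 replicate 1 and 93.1 CPM in CTRL replicate 1, against 0.312 to 2.38 CPM in the other 8 libraries. PRB3 of that list had no count in any library. Of 11 markers of leukocytes, endothelium, hepatocytes and fibroblasts the summed level was 4.99 to 13.8 CPM, and COL1A1 alone made up 3.2 to 10.8 CPM of it. The leukocyte marker PTPRC was highest in MN1-BEND2 replicate 1, at 1.27 CPM, and next highest in MN1-CXXC5 replicate 1. It had at most 0.107 CPM in the other 8 libraries. ZG16B of the salivary list had 1.22 and 0.77 CPM in the same libraries, in that order, and 0 CPM in replicate 2 of both groups. The part of these transcripts in the results below was not tested. Where leaving out CTRL replicate 1 and MN1 replicate 1 together ended the call of one of the 8 genes, the value without them is given. Leaving out MN1 replicate 2 or CTRL replicate 2 alone also lowered the number of genes called over the whole table in MN1 against CTRL cells. Whether a lost call goes with these transcripts or with the smaller number of libraries was not tested.

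Per length, PBX3 was the most abundant of the 8 genes in CTRL cells, with 31.1 ± 2.56 TPM (mean ± SD, n = 2, transcript levels computed from the counts and the exonic length and scaled to a common total). PKNOX1 followed with 13.6 ± 0.741 TPM, MEIS2 with 12.3 ± 0.398 TPM and MEIS3 with 10.9 ± 1 TPM in CTRL cells. MEIS1 had 4.68 ± 0.188 TPM and PKNOX2 4.26 ± 0.0203 TPM there. PBX4, at 1.53 ± 0.116 TPM, and PBX2, at 1.43 ± 0.49 TPM, were the lowest. In MN1 cells the order at the top was turned, with PKNOX1 at 32.5 ± 1.57 TPM and PBX3 at 30.2 ± 1.37 TPM. Within a gene, levels are given from here on as CPM with TMM scaling, and the counts behind them set the precision: PBX4 had 13 to 48 counts and PBX2 17 to 85 counts per library, while the other 6 genes had at least 103. By mean CPM over the 10 libraries, PKNOX1 stood at the 70.4th percentile of the 18127 genes tested and PBX4 at the 18.1th.

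**Figure D1:**
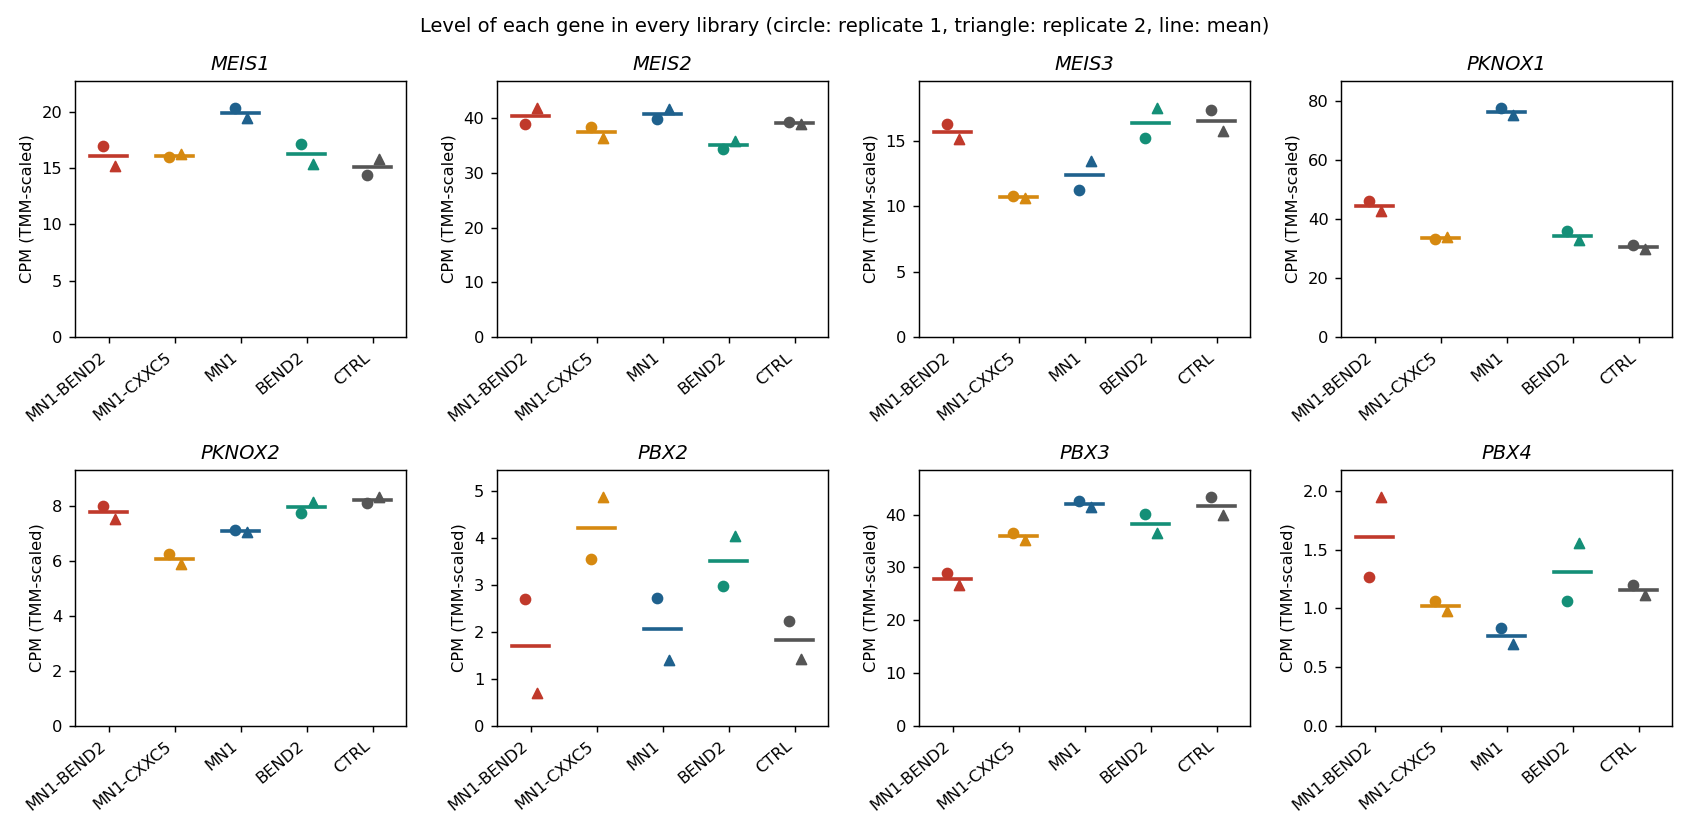
Level of each gene in CPM with TMM scaling (vertical axis, from 0) in the 10 libraries, with 1 panel per gene, the 5 groups along the horizontal axis, circles for replicate 1, triangles for replicate 2 and a line at the mean. PKNOX1 reaches 75.2 and 77.6 CPM in MN1 cells and at most 46.1 CPM elsewhere, PBX3 is lowest in MN1-BEND2 cells, and the PBX2 points of a group lie far apart.

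The results turn mostly on PKNOX1, PBX3 and MEIS3, and the DNA just before a RefSeq start of these 3 genes is shown so that their promoters can be compared. The sequences come from the RefSeq promoter table (GRCh38), in which 7 of the 8 genes were matched, and each stretch was trimmed so that it holds no GENCODE exon. They read 5′ to 3′ on the strand of the gene, and capitals mark a match to the MEIS and PKNOX core TGACAG on either strand. PKNOX1 lies on the forward strand of chromosome 21 (42974510 to 43033931), and the stretch chr21:42974312-42974509 ends at the base before it. PBX3 lies on the forward strand of chromosome 9 (125747345 to 125967377), and chr9:125747933-125748181 is the non-exonic stretch before its RefSeq start. That start is 838 bases inside the GENCODE span, so the PBX3 stretch lies within the annotated gene. MEIS3 lies on the reverse strand of chromosome 19 (47403124 to 47419523), and chr19:47419528-47419777 lies just outside it. A second RefSeq window of MEIS3 (59.3% G or C), with its start 2710 bases outside the span, is not shown.
PKNOX1: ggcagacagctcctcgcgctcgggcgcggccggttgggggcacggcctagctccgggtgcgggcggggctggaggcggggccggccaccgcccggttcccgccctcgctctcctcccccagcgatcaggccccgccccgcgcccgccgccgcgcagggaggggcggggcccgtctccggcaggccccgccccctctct
PBX3: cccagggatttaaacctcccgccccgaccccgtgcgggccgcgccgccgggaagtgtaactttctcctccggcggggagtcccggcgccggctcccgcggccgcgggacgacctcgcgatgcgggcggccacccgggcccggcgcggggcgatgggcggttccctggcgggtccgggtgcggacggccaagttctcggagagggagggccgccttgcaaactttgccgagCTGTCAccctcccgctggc
MEIS3: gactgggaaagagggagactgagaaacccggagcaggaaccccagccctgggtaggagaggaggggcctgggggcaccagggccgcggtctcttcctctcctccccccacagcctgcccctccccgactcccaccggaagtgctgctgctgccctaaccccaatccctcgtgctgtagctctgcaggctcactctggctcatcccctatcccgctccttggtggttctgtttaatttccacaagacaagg

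Over the whole RefSeq window of 300 bases, PKNOX1 was 78.7% G or C and held 46 CG pairs, and PBX3 was 76% G or C and held 43. MEIS3 was 65.7% G or C and held 13 CG pairs. The medians over all 35116 windows were 58.7% and 14 CG pairs, so the PKNOX1 and PBX3 windows stood at the 96th and 92.2th percentile of G and C content and the MEIS3 window at the 68.7th. The 1 match to TGACAG, on the reverse strand as CTGTCA, was in the PBX3 window, and 15.8% of all windows hold such a match. The PBX and HOX composite TGATNNAT, searched on both strands as well, was in none of these 3 windows and in 7.4% of all windows. These matches describe the letters only.

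MEIS1, the leukaemia-linked member of the MEIS group, was highest in MN1 cells. It had 17 and 15.2 CPM in MN1-BEND2 cells, 16 and 16.2 CPM in MN1-CXXC5 cells, 20.3 and 19.4 CPM in MN1 cells, 17.2 and 15.4 CPM in BEND2 cells, and 14.4 and 15.8 CPM in CTRL cells. Both MN1 libraries lay above the other 8 libraries. Those groups overlapped one another, except that both MN1-CXXC5 libraries lay just above both CTRL libraries. MEIS1 rose in MN1 cells against CTRL cells by 0.39 on the log2 scale (SE 0.085, edgeR adjusted p = 0.00265). It was lower in MN1-BEND2 than in MN1 cells (log2 fold change -0.31, edgeR adjusted p = 0.00937) and in MN1-CXXC5 cells it was also below MN1 cells (-0.30, edgeR adjusted p = 0.0119). Against BEND2 cells it was higher in MN1 cells by 0.28 (edgeR adjusted p = 0.0248). None of the 6 comparisons among the other 4 groups was called, with edgeR adjusted p from 0.437 to 0.942.

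Each of these MEIS1 calls was close to the threshold in some setting. Without CTRL replicate 1 and MN1 replicate 1 together, the libraries with salivary transcripts, the rise in MN1 cells was 0.30 (edgeR adjusted p = 0.099). Without both, MEIS1 also lost its calls in MN1-BEND2 against MN1 (-0.29, edgeR adjusted p = 0.0561), MN1-CXXC5 against MN1 (-0.24, edgeR adjusted p = 0.101) and MN1 against BEND2 cells (0.25, edgeR adjusted p = 0.136). The difference between MN1-BEND2 and MN1 cells was -0.29 without MN1 replicate 1 alone (edgeR adjusted p = 0.0546) and -0.23 without MN1-BEND2 replicate 2 (edgeR adjusted p = 0.0971). That between MN1-CXXC5 and MN1 cells missed the threshold without MN1 replicate 1 (edgeR adjusted p = 0.0984) or MN1-CXXC5 replicate 1 (edgeR adjusted p = 0.0554), and that between MN1 and BEND2 cells without BEND2 replicate 2, MN1 replicate 1 or MN1 replicate 2 (edgeR adjusted p = 0.147, 0.132 and 0.0613).

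MEIS2, a second MEIS gene with roles in limb, heart and neural patterning, had the narrowest range of group means of the 8 (0.21 on the log2 scale). It had 39 and 41.8 CPM in MN1-BEND2 cells, 38.4 and 36.4 CPM in MN1-CXXC5 cells, 39.9 and 41.7 CPM in MN1 cells, 34.5 and 35.9 CPM in BEND2 cells, and 39.4 and 38.9 CPM in CTRL cells. BEND2 cells were lowest and did not overlap any other group. The difference from CTRL cells was -0.16 on the log2 scale (95% interval -0.27 to -0.05, edgeR adjusted p = 0.0563) and was not called. Against BEND2 cells, MEIS2 was higher in MN1-BEND2 cells by 0.21 (edgeR adjusted p = 0.00509) and in MN1 cells by 0.22 (edgeR adjusted p = 0.00667). The first of these missed the threshold without BEND2 replicate 1 or MN1-BEND2 replicate 2 (edgeR adjusted p = 0.0794 and 0.0817), and the second without BEND2 replicate 1 or MN1 replicate 2 (edgeR adjusted p = 0.0919 and 0.0679). MN1-BEND2 against MN1-CXXC5 cells (0.11, edgeR adjusted p = 0.073) and MN1-CXXC5 against MN1 cells (-0.125, edgeR adjusted p = 0.0662) were not called. With library totals both were called, at 0.16 and -0.14 (edgeR adjusted p = 0.0182 and 0.0488).

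MEIS3, which acts upstream of hindbrain Hox genes in fish and frog embryos, was lowest in MN1-CXXC5 cells. It had 16.3 and 15.1 CPM in MN1-BEND2 cells, 10.8 and 10.6 CPM in MN1-CXXC5 cells, 11.3 and 13.4 CPM in MN1 cells, 15.2 and 17.5 CPM in BEND2 cells, and 17.3 and 15.7 CPM in CTRL cells. The libraries of MN1-CXXC5 and MN1 cells lay below those of the other 3 groups. MEIS3 in MN1-CXXC5 cells fell by 0.63 on the log2 scale against CTRL cells (SE 0.107, edgeR adjusted p = 0.000501). In MN1 cells it fell by 0.42 (SE 0.104, edgeR adjusted p = 0.00635). MN1-CXXC5 and MN1 cells themselves differed by -0.21 (95% interval -0.45 to 0.04, edgeR adjusted p = 0.146), which was not called. The level in MN1-BEND2 cells was higher than in MN1-CXXC5 cells by 0.55 (edgeR adjusted p = 0.000793) and higher than in MN1 cells by 0.34 (edgeR adjusted p = 0.0178).

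The fall of MEIS3 in MN1 cells was -0.30 without MN1 replicate 1 (edgeR adjusted p = 0.0722) and -0.23 without that library and CTRL replicate 1 (edgeR adjusted p = 0.236). The difference between MN1-BEND2 and MN1 cells was lost without MN1 replicate 1 (0.21, edgeR adjusted p = 0.186) or MN1-BEND2 replicate 1 (0.29, edgeR adjusted p = 0.0941), and without CTRL replicate 1 and MN1 replicate 1 together (0.21, edgeR adjusted p = 0.19). MEIS3 has a G and C content of 61.2% over its longest transcript, the highest of the 8 genes, and its calls changed when fold changes were corrected for G and C content and length. After that correction it was -0.27 in MN1-CXXC5 against CTRL cells (edgeR adjusted p = 0.0646) and -0.04 in MN1-BEND2 against MN1-CXXC5 cells (edgeR adjusted p = 0.774), so that the difference between the fusions lost its call and its direction. With the scaling factors kept from before the correction, MEIS3 was -0.34 in MN1-CXXC5 against CTRL cells (edgeR adjusted p = 0.0245) and 0.03 in MN1-BEND2 against MN1-CXXC5 cells (edgeR adjusted p = 0.826).

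PKNOX1, or PREP1, pairs with PBX proteins in nearly all tissues and is a tumour suppressor in mice. It had 46.1 and 42.8 CPM in MN1-BEND2 cells, 33.4 and 33.8 CPM in MN1-CXXC5 cells, 77.6 and 75.2 CPM in MN1 cells, 36.1 and 32.8 CPM in BEND2 cells, and 31.2 and 29.9 CPM in CTRL cells. MN1 cells were far above all others, MN1-BEND2 cells came next, and the groups of MN1-CXXC5 and BEND2 cells overlapped each other. PKNOX1 rose 2.5-fold in MN1 cells against CTRL cells (log2 fold change 1.32, SE 0.053, edgeR adjusted p = 1.13e-08). In MN1-BEND2 cells it rose 1.45-fold (log2 fold change 0.54, SE 0.055, edgeR adjusted p = 5.94e-06).

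In MN1-CXXC5 cells the PKNOX1 level was 0.14 above CTRL cells on the log2 scale (95% interval 0.01 to 0.27, edgeR adjusted p = 0.0808), and that in BEND2 cells 0.18 above (95% interval 0.06 to 0.31, edgeR adjusted p = 0.0545). Neither was called. Both fusions had less PKNOX1 than unfused MN1. The difference was -0.78 in MN1-BEND2 against MN1 cells (edgeR adjusted p = 1.29e-07) and -1.18 in MN1-CXXC5 against MN1 cells (edgeR adjusted p = 9.98e-09). MN1-BEND2 cells were above MN1-CXXC5 cells by 0.40 (edgeR adjusted p = 6.61e-05) and above BEND2 cells by 0.36 (edgeR adjusted p = 0.00022), and MN1 cells were above BEND2 cells by 1.14 (edgeR adjusted p = 6.22e-08). Over 21 alternative settings the rise in MN1 cells lay between 1.29 and 1.35 and that in MN1-BEND2 cells between 0.49 and 0.59, called in all 21.

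PKNOX2, the second PREP gene, had 8.04 and 7.56 CPM in MN1-BEND2 cells, 6.28 and 5.91 CPM in MN1-CXXC5 cells, 7.13 and 7.07 CPM in MN1 cells, 7.77 and 8.17 CPM in BEND2 cells, and 8.12 and 8.34 CPM in CTRL cells. MN1-CXXC5 cells were lowest and MN1 cells next, and the libraries of BEND2 cells overlapped those of MN1-BEND2 and CTRL cells. PKNOX2 fell by 0.44 on the log2 scale in MN1-CXXC5 against CTRL cells (SE 0.104, edgeR adjusted p = 0.00503). In MN1 against CTRL cells the difference was -0.21 (95% interval -0.44 to 0.01, edgeR adjusted p = 0.129). PKNOX2 was also lower in MN1-CXXC5 than in BEND2 cells (-0.39, edgeR adjusted p = 0.0104) and higher in MN1-BEND2 than in MN1-CXXC5 cells (0.35, edgeR adjusted p = 0.0119). The first of this pair missed the threshold without BEND2 replicate 2 or MN1-CXXC5 replicate 2 (edgeR adjusted p = 0.0513 and 0.0822), and the second without MN1-BEND2 replicate 1 or MN1-CXXC5 replicate 2 (edgeR adjusted p = 0.0693 and 0.0948). With a correction for G and C content and length both calls were lost, at -0.25 in MN1-CXXC5 against BEND2 cells (edgeR adjusted p = 0.117) and 0.15 in MN1-BEND2 against MN1-CXXC5 cells (edgeR adjusted p = 0.347). With the scaling factors kept from before the correction, the call in MN1-CXXC5 against BEND2 cells held. That in MN1-BEND2 against MN1-CXXC5 cells was lost there too (0.23, edgeR adjusted p = 0.131).

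PBX3, the most abundant PBX gene among those described and a partner of HOXA9 and MEIS1 in leukaemia, was lowest in MN1-BEND2 cells. It had 29 and 26.6 CPM in MN1-BEND2 cells, 36.6 and 35.2 CPM in MN1-CXXC5 cells, 42.6 and 41.5 CPM in MN1 cells, 40.1 and 36.4 CPM in BEND2 cells, and 43.3 and 39.9 CPM in CTRL cells. Both MN1-BEND2 libraries lay below the other 8. PBX3 fell in MN1-BEND2 cells by 0.58 on the log2 scale against CTRL cells (SE 0.062, edgeR adjusted p = 8.12e-06), to 0.667 of the CTRL level. MN1-BEND2 cells were also lower than the other knockins, with log2 fold changes of -0.60 against MN1 (edgeR adjusted p = 9.05e-06), -0.48 against BEND2 (edgeR adjusted p = 6.92e-05) and -0.37 against MN1-CXXC5 cells (edgeR adjusted p = 0.000379). The difference from MN1-CXXC5 cells was -0.17 (edgeR adjusted p = 0.0594) with the correction for G and C content in the version that kept the scaling factors. Over the 21 alternatives the fall against CTRL cells lay between -0.65 and -0.50 and was called in all 21.

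PBX3 also fell in MN1-CXXC5 cells, by 0.21 against CTRL cells (SE 0.062, edgeR adjusted p = 0.0159), and was lower there than in MN1 cells (-0.23, edgeR adjusted p = 0.00969). Against CTRL cells the call was lost without CTRL replicate 1 (-0.16, edgeR adjusted p = 0.109) or MN1-CXXC5 replicate 2 (-0.18, edgeR adjusted p = 0.0966), and against MN1 cells without MN1 replicate 1 (edgeR adjusted p = 0.0876) or MN1-CXXC5 replicate 2 (edgeR adjusted p = 0.0656). Without CTRL replicate 1 and MN1 replicate 1 together, PBX3 in MN1-CXXC5 cells was -0.13 against CTRL cells (edgeR adjusted p = 0.208) and -0.18 against MN1 cells (edgeR adjusted p = 0.0754). No difference in PBX3 among MN1, BEND2 and CTRL cells was called, and MN1 cells differed from CTRL cells by 0.02 (95% interval -0.11 to 0.15).

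PBX2 and PBX4 are PBX genes with few counts here. PBX2, on the reverse strand of chromosome 6 (32184741 to 32190186), had 2.7 and 0.691 CPM in MN1-BEND2 cells, 3.55 and 4.87 CPM in MN1-CXXC5 cells, 2.73 and 1.39 CPM in MN1 cells, 2.97 and 4.06 CPM in BEND2 cells, and 2.24 and 1.41 CPM in CTRL cells. The pair of libraries of a group differed by up to 51 against 17 counts, in MN1-BEND2 cells, where replicate 2 had 0.256 of the scaled level of replicate 1. Both MN1-CXXC5 libraries were above both CTRL libraries, and the rise of 1.22 on the log2 scale passed the threshold narrowly (SE 0.46, edgeR adjusted p = 0.0485). It missed it without any 1 of 6 libraries, with edgeR adjusted p = 0.0629 and 0.0628 without BEND2 replicate 1 or 2, 0.0565 and 0.238 without CTRL replicate 1 or 2, and 0.0625 and 0.221 without MN1-CXXC5 replicate 1 or 2. PBX2 was lower in MN1-BEND2 than in MN1-CXXC5 cells (-1.38, edgeR adjusted p = 0.0236), a call that was lost without MN1-BEND2 replicate 2 (-0.64, edgeR adjusted p = 0.185) or MN1-CXXC5 replicate 2 (-1.14, edgeR adjusted p = 0.13).

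The spread of PBX2 between replicates had company on the same stretch of chromosome 6. Among genes with a mean of at least 1 CPM, 6 of 14 within 500 kb of PBX2 (42.9%), PBX2 included, had replicates that differed by over 1 on the log2 scale in some group, against 322 of 15212 other genes (2.12%). The largest gaps there were in NELFE, VARS and SKIV2L, at 5.82, 4.62 and 4.18 on the log2 scale. The window was chosen after these values were seen. The processed pseudogene PBX2P1 had 11 to 28 counts per library, and whether reads were shared between it and PBX2 was not tested.

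PBX4 had 1.27 and 1.95 CPM in MN1-BEND2 cells, 1.07 and 0.975 CPM in MN1-CXXC5 cells, 0.836 and 0.696 CPM in MN1 cells, 1.06 and 1.56 CPM in BEND2 cells, and 1.2 and 1.11 CPM in CTRL cells. Both MN1 libraries lay below the other 8, and the mean was highest in MN1-BEND2 cells, which overlapped BEND2 cells. PBX4 was 2.13-fold higher in MN1-BEND2 than in MN1 cells (log2 fold change 1.09, SE 0.299, edgeR adjusted p = 0.0102). This call was lost without MN1 replicate 2 (0.96, edgeR adjusted p = 0.0726) or MN1-BEND2 replicate 2 (0.72, edgeR adjusted p = 0.149). The differences from CTRL cells were not detectable at this depth, with 95% intervals of -0.09 to 1.09 in MN1-BEND2 cells and -1.28 to 0.11 in MN1 cells.

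In MN1-BEND2 cells PKNOX1 rose and PBX3 fell against CTRL cells. These 2 of the 8 genes were called, 1 higher and 1 lower, where 51.9% of the 18127 genes tested were called either way, 26.7% higher and 25.2% lower. Without MN1-BEND2 replicate 1, PBX2 (-1.38, edgeR adjusted p = 0.0411) and PBX4 (0.76, edgeR adjusted p = 0.0499) were called as well, which makes 4. In MN1-CXXC5 cells MEIS3, PKNOX2 and PBX3 fell and PBX2 rose, so that 4 of 8 were called, near the background of 44.3% (19.2% higher and 25.1% lower). Without CTRL replicate 1, and likewise without MN1-CXXC5 replicate 2, 2 of the 8 remained called, MEIS3 and PKNOX2. The median log2 fold change of the 8 genes was -0.01 for MN1-BEND2 and -0.12 for MN1-CXXC5 cells, against 0.01 and -0.03 over all genes tested.

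In MN1 cells PKNOX1 and MEIS1 rose and MEIS3 fell against CTRL cells. That is 3 of 8 genes, against a background of 43% (21.6% higher and 21.4% lower). Without CTRL replicate 1 and MN1 replicate 1 PKNOX1 kept its call, while MEIS1, at 0.30, and MEIS3, at -0.23, did not. That fit leaves 1 library in each of these groups, and fewer genes were called in it over the whole table as well. In BEND2 cells 0 of the 8 genes were called by edgeR, where 14.2% of all genes were (6.71% higher and 7.46% lower). By DESeq2 0 of the 8 were called, where it called 805 of 38343 genes with a count, 320 higher and 485 lower. MEIS2 and PKNOX1, 2 of the 8 genes, had an unadjusted edgeR p under 0.05. Both were called with a replicate block (edgeR adjusted p = 0.029 and 0.0149). Without BEND2 replicate 2 PKNOX1 was called in BEND2 cells (0.24, edgeR adjusted p = 0.0425). The median log2 fold change of the 8 genes was 0.04 in MN1 cells and 0.04 in BEND2 cells, against 0.00 over all genes in both. The 4 comparisons share the CTRL libraries, so their values stand side by side and are not independent of one another.

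**Figure D2:**
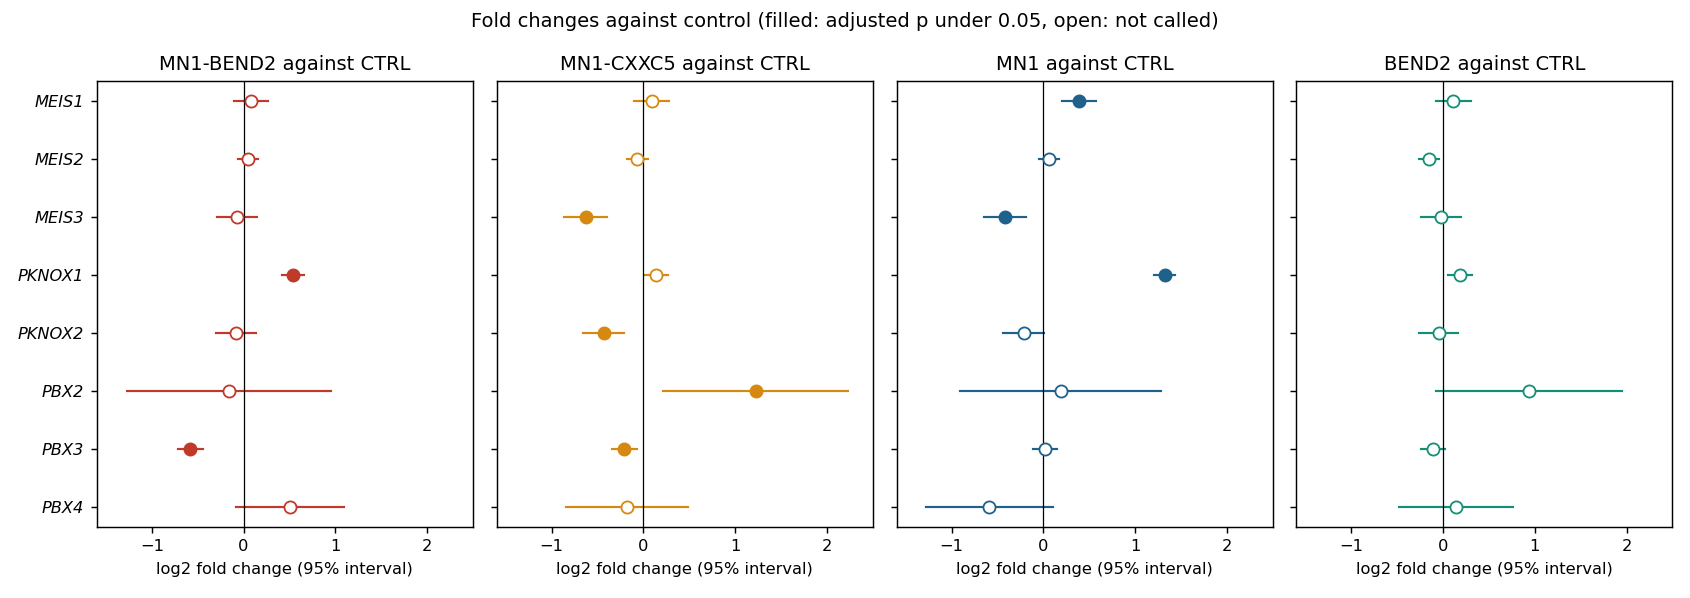
Log2 fold change against CTRL cells (horizontal axis, with 95% intervals) of the 8 genes in MN1-BEND2, MN1-CXXC5, MN1 and BEND2 cells from left to right, filled where the edgeR adjusted p was under 0.05 and open where it was not. PKNOX1 in MN1 cells lies farthest from 0 among the narrow intervals, at 1.32, and the intervals of PBX2 and PBX4 are the widest.

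The knockins were also set against each other. MN1-BEND2 against MN1 cells had PBX4 and MEIS3 higher and PKNOX1, PBX3 and MEIS1 lower, 5 of 8 against a background of 46.3% (23.2% higher and 23.2% lower). Without MN1 replicate 1 the count was 3 (PKNOX1, PBX3 and PBX4), and without MN1-BEND2 replicate 2 it was 3 as well (PKNOX1, PBX3 and MEIS3). MN1-BEND2 against BEND2 cells had PKNOX1 and MEIS2 higher and PBX3 lower, 3 of 8 against 43.6% (21.7% higher and 21.9% lower). MN1-CXXC5 against MN1 cells had PKNOX1, MEIS1 and PBX3 lower and none higher, 3 of 8 against 48.8% (23.3% higher and 25.5% lower). MN1-BEND2 against MN1-CXXC5 cells had MEIS3, PKNOX1 and PKNOX2 higher and PBX3 and PBX2 lower, 5 of 8 against 58.6% (31.1% higher and 27.5% lower), and 3 without MN1-CXXC5 replicate 2. MN1 against BEND2 cells had PKNOX1, MEIS1 and MEIS2 higher and MEIS3 lower (-0.39, edgeR adjusted p = 0.0133, and -0.27 with edgeR adjusted p = 0.128 without CTRL replicate 1 and MN1 replicate 1), 4 of 8 against 31.1% (15.9% higher and 15.2% lower), and 2 without BEND2 replicate 2, MN1 replicate 1 or MN1 replicate 2. MN1-CXXC5 against BEND2 cells had MEIS3 (-0.60, edgeR adjusted p = 0.000681) and PKNOX2 lower, 2 of 8 against 45.2% (20.9% higher and 24.4% lower), and 1 without BEND2 replicate 2 or MN1-CXXC5 replicate 2. MEIS3 in that last comparison was -0.12 with the correction for G and C content and length (edgeR adjusted p = 0.428), and -0.20 with the scaling factors kept (edgeR adjusted p = 0.171). By DESeq2, 14 calls over the 11 comparisons were lost, 4 of MEIS1, 3 of PKNOX2, 2 each of MEIS2, MEIS3 and PBX3, and 1 of PBX4. No share of the 8 genes is read as a result against these backgrounds, and p-values were adjusted over the genes of each comparison, not over the 11 comparisons.

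The fusion was also set against the sum of its unfused parts, as the log2 fold change of MN1-BEND2 cells less those of MN1 and BEND2 cells, all taken against CTRL cells. PKNOX1, PBX3 and MEIS1 were called below that sum and none was called above it, 3 of the 8 genes, where 36.9% of all genes were, 18.3% above the sum and 18.6% below it. For PKNOX1 the fold change in MN1-BEND2 cells was 0.54, against 1.32 in MN1 and 0.18 in BEND2 cells, and the difference was -0.97 (SE 0.076, edgeR adjusted p = 1.71e-06). For PBX3 these were -0.58, against 0.02 and -0.11, and the difference was -0.50 (SE 0.087, edgeR adjusted p = 0.000821). For MEIS1 these were 0.08, against 0.39 and 0.11, and the difference was -0.42 (SE 0.12, edgeR adjusted p = 0.0154). The MEIS1 call was lost without BEND2 replicate 1, CTRL replicate 1 or MN1-BEND2 replicate 2 (edgeR adjusted p = 0.0856, 0.0572 and 0.0675) and without CTRL replicate 1 and MN1 replicate 1 together (edgeR adjusted p = 0.125), where the PKNOX1 and PBX3 calls held in all 21 alternatives. Without MN1-BEND2 replicate 1, PBX2 (-2.50, edgeR adjusted p = 0.00709) and PBX4 (1.21, edgeR adjusted p = 0.0419) were called too, which makes 5. MEIS3 lay above the sum by 0.37 (95% interval 0.05 to 0.68, edgeR adjusted p = 0.0665) and passed the threshold without BEND2 replicate 2 (0.46, edgeR adjusted p = 0.04), without MN1 replicate 2 (0.50, edgeR adjusted p = 0.0272), without a low-count filter (edgeR adjusted p = 0.038) and by limma-voom (adjusted p = 0.0498). MEIS2 lay above it by 0.15 (edgeR adjusted p = 0.126) and was called with the correction for G and C content and length (0.22, edgeR adjusted p = 0.0276).

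**Figure D3:**
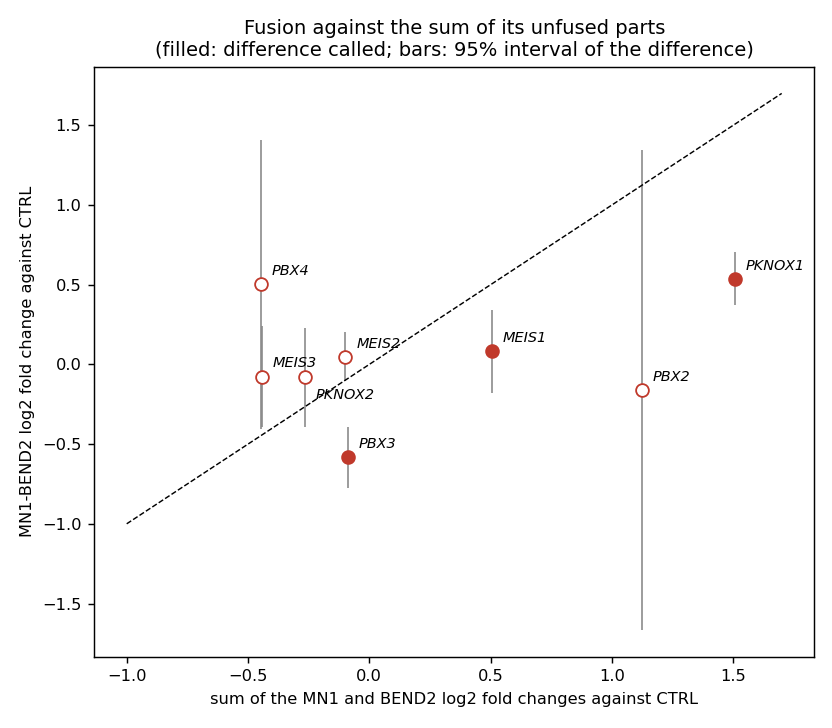
Log2 fold change of each gene in MN1-BEND2 cells against CTRL cells (vertical axis) over the sum of the fold changes in MN1 and BEND2 cells (horizontal axis), with the dashed line where both are equal, grey bars for the 95% interval of the difference and filled points where it was called. PKNOX1, PBX3 and MEIS1 are the called genes and lie below the line, with differences of -0.97, -0.50 and -0.42, and PBX2 lies below it with an interval that reaches the line.

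As an alternative, all genes were refitted with a correction for G and C content and exonic length, after which the scaling factors were estimated again. The direction and the call of PKNOX1 in MN1-BEND2 and MN1 cells and of PBX3 in MN1-BEND2 and MN1-CXXC5 cells were as before. MEIS2, with the lowest G and C content of the 8 genes (40.9%), was then called higher in MN1-BEND2 cells against CTRL cells (0.19, edgeR adjusted p = 0.00725) and lower in MN1-CXXC5 cells (-0.20, edgeR adjusted p = 0.00962). It was also called higher in MN1-BEND2 than in MN1-CXXC5 cells (0.39, edgeR adjusted p = 6.57e-05). In MN1-CXXC5 against MN1 cells it was called lower (-0.28, edgeR adjusted p = 0.000982). MEIS3 was then called lower in MN1-BEND2 cells (-0.31, edgeR adjusted p = 0.0209). MEIS1 was then higher in MN1-BEND2 than in MN1-CXXC5 cells (0.25, edgeR adjusted p = 0.035), where it was -0.01 without the correction. In MN1-BEND2 against MN1 cells the calls of MEIS1 (-0.21, edgeR adjusted p = 0.0618) and MEIS3 (0.195, edgeR adjusted p = 0.15) were lost. With the scaling factors kept they were lost too, at -0.20 and 0.20 (edgeR adjusted p = 0.0695 and 0.139). Whether the correction removes a technical trend or a real one was not tested.

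**Figure D4:**
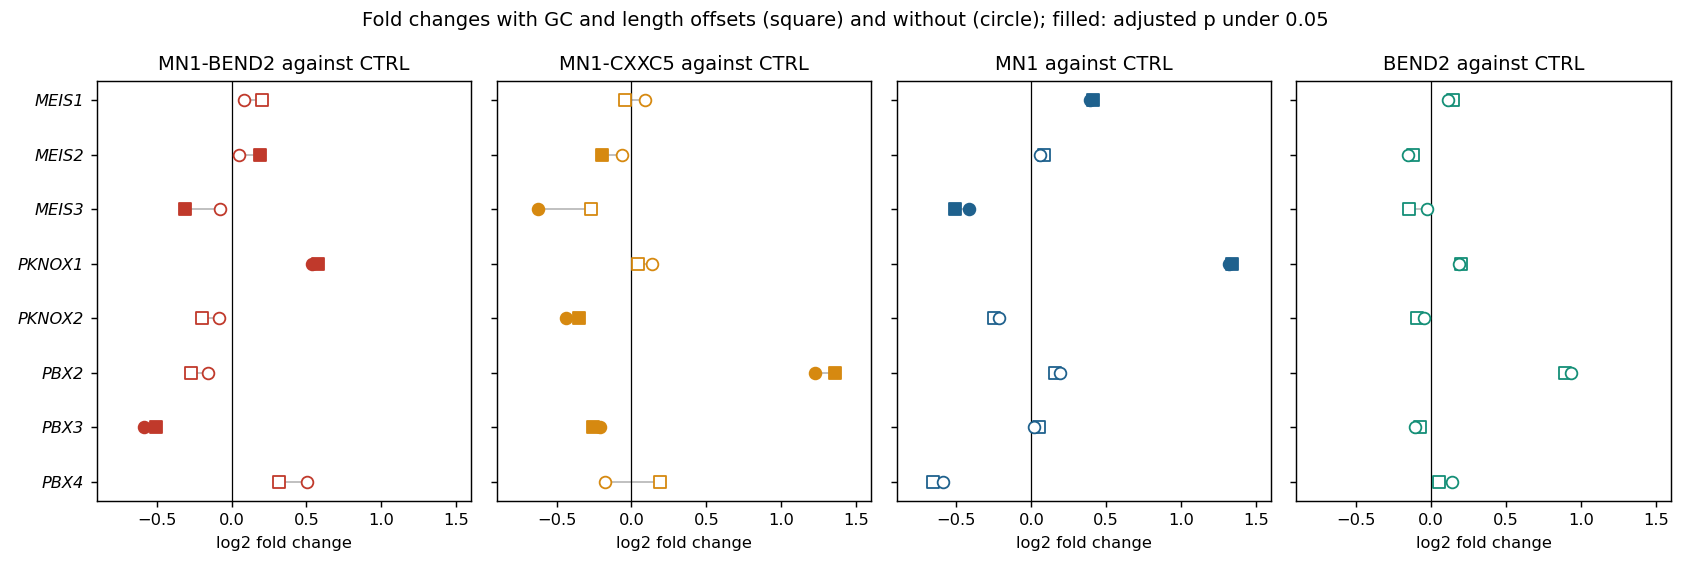
Log2 fold change against CTRL cells (horizontal axis) of the 8 genes with a correction for G and C content and length (squares) and without it (circles), in MN1-BEND2, MN1-CXXC5, MN1 and BEND2 cells from left to right, filled where the adjusted p was under 0.05. MEIS3 is at -0.27 with the correction in MN1-CXXC5 cells against -0.63 without it, PBX4 shifts there by a like amount across 0 without being called, while PKNOX1 in MN1 cells stays above 1.3.

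The genes whose profiles over the 10 libraries were most like that of PKNOX1, among 10661 protein-coding genes with a mean of at least 5 CPM, were CCDC68 and MAB21L1. Their log2 profiles differed from that of PKNOX1 by a root mean square of 0.14 and 0.18, against a median of 0.51 over all these genes. CCDC68 had 10.2 and 10.3 CPM in MN1-BEND2 cells, 6.63 and 6.42 CPM in MN1-CXXC5 cells, 17.4 and 15.3 CPM in MN1 cells, 9.46 and 7.42 CPM in BEND2 cells, and 7.5 and 7.31 CPM in CTRL cells. MAB21L1, a gene of eye and nervous system development, had 11.8 and 12.2 CPM in MN1 cells against 5.21 and 6.33 CPM in CTRL cells. PBX2 was nearest to DDX39B, also on chromosome 6, and RBFOX2, on chromosome 22. They lay at 0.54 and 0.55 against a median of 0.78, so no gene was close to it. DDX39B replicates also differed, with 6.98 and 2.19 CPM in MN1-BEND2 cells and 9.95 and 4.99 CPM in MN1-CXXC5 cells. The other 6 genes had group means within 1 of each other on the log2 scale and are not named with like genes.

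HOX genes, the partners of these 8 proteins, were tested for 33 of 39 members. Against CTRL cells, 11 HOX genes rose and 11 fell in MN1-BEND2 cells, with a median log2 fold change of 0.08. HOXC4, HOXD8 and HOXA5 had the smallest adjusted p and fell by 0.68, 0.98 and 0.60 on the log2 scale. In MN1-CXXC5 cells 19 rose and 3 fell, with a median of 0.31. HOXA13 rose by 1.25 and HOXC6 by 1.02 there, and HOXD8 fell by 1.95. In MN1 cells 10 rose and 2 fell, with a median of 0.15, and HOXA13, HOXA9 and HOXA11 rose by 0.62, 0.53 and 0.80. In BEND2 cells 3 rose and 3 fell, with a median of 0.03, and HOXA13 and HOXA11 rose by 0.36 and 0.27 while HOXD8 fell by 0.27. Over all genes, the shares called higher and lower were 26.7% and 25.2% for MN1-BEND2, 19.2% and 25.1% for MN1-CXXC5, 21.6% and 21.4% for MN1, and 6.71% and 7.46% for BEND2 cells, and the counts of the lists below stand beside the same shares. With the correction for G and C content and length, 10 HOX genes were called higher and 13 lower in MN1-BEND2 cells, where the median turned to -0.06, and 24 higher and 2 lower in MN1-CXXC5 cells, with a median of 0.49. Without CTRL replicate 1 and MN1 replicate 1, 36 HOX genes were tested, with medians of 0.10 in MN1 and 0.01 in BEND2 cells. Fewer HOX genes were called there in both, and fewer of all genes as well. HOX genes overlap antisense transcripts, and since the strand setting of the counting is not given, reads of such pairs cannot be told apart.

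Of the other TALE genes, the IRX, TGIF and MKX genes, 7 of 10 were tested. In MN1-BEND2 cells 4 rose and 0 fell, led by IRX5 (0.78), IRX3 (0.49) and MKX (1.19). In MN1-CXXC5 cells 2 rose, IRX5 (0.46) and IRX3 (0.43), and 1 fell, TGIF2 (-0.26). In MN1 cells 4 rose and 2 fell, among them IRX5 (0.76), and TGIF1 (-0.72) and TGIF2 (-0.20). In BEND2 cells 1 fell, TGIF1 (-0.34), and it was not called without CTRL replicate 1 and MN1 replicate 1. The medians were 0.49, 0.09, 0.41 and 0.16 in MN1-BEND2, MN1-CXXC5, MN1 and BEND2 cells. With the correction for G and C content and length, 2 were called higher and 1 lower in MN1-BEND2 cells, with a median of 0.22, and 2 higher and 2 lower in MN1 cells, with a median of 0.28. IRX genes pattern neural tissue and kidney tubules, and TGIF1 and TGIF2 are repressors in TGF-beta and retinoic acid signalling.

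Genes of the menin and MLL complex and its cofactors, which act on chromatin at HOX and MEIS1, were tested for all 11. In MN1-BEND2 cells 5 rose and 4 fell, with DOT1L, an H3K79 methyltransferase, at 0.79, the coactivator EP300 at -0.44 and KMT2B, an MLL paralogue, at 0.50. In MN1-CXXC5 cells 1 rose, WDR5 (0.15), and 4 fell, led by the core subunit ASH2L (-0.47) and the coactivator CREBBP (-0.31), and 3 of the 11 were called without CTRL replicate 1 and MN1 replicate 1. In MN1 cells 3 rose and 4 fell, with MEN1, which encodes menin, at 0.42, ASH2L at -0.44 and CREBBP at -0.41. In BEND2 cells 3 fell, ASH2L (-0.30), CREBBP (-0.21) and KMT2A (-0.14). The medians were -0.01, 0.06, -0.02 and -0.03 in MN1-BEND2, MN1-CXXC5, MN1 and BEND2 cells. With the correction for G and C content and length, 4 were called higher and 3 lower in MN1-CXXC5 cells, and 3 higher and 4 lower in MN1-BEND2 cells. PBXIP1, which encodes a protein that binds PBX and keeps it from DNA, was -0.31 in MN1-CXXC5 against CTRL cells (edgeR adjusted p = 0.0121) and was not called in the other knockins. It was not called there with the correction, at -0.008, or without CTRL replicate 1 and MN1 replicate 1, at -0.23.

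Of 13 genes known from other systems as regulated by HOX, PBX, MEIS or PREP proteins, 11 were tested. In MN1-BEND2 cells 5 rose and 3 fell, with CCND3 (cyclin D3) at 0.93, HIF1A at -0.57 and PLAU (urokinase) at 1.01. In MN1-CXXC5 cells 1 rose and 5 fell, with CDKN1A (the cell cycle inhibitor p21) at -0.68, SOX4 at -0.47 and CCND3 at -0.52. In MN1 cells 1 rose and 5 fell, with SOX4 at -0.32, TRIB2 at -0.26 and CDKN1A at -0.24. In BEND2 cells CCND3 rose by 0.18 and HIF1A fell by 0.12, and neither was called without CTRL replicate 1 and MN1 replicate 1. With the correction for G and C content and length, 3 were called higher and 4 lower in MN1-BEND2 cells, 1 higher and 6 lower in MN1-CXXC5 cells with a median of -0.22, and 0 in BEND2 cells. The medians without it were -0.07, -0.37, -0.16 and 0.06 in MN1-BEND2, MN1-CXXC5, MN1 and BEND2 cells. CCND3, chosen after its values were seen, was also higher in MN1 than in CTRL cells (0.24), so that of the 4 knockins it fell in MN1-CXXC5 cells alone.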

How the data were processed

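Bulk RNA-seq of 10 TREx293 libraries was analysed from the deposited whole-number counts per gene. Per the submitters' processing notes the authors used HISAT2, SAMtools 1.0.1 and featureCounts 2.0.0 with the GRCh38 genome. For the strand setting, the counting options and the annotation release, the value is not given in the sources used here. Columns were matched to samples by name, with 0 value columns unmatched. The 45 identifiers with 2 lines were summed, and 27 symbols written as dates were restored from GENCODE release 29. That release also gave positions, exonic lengths and the G and C content of the longest transcript of each gene. Libraries held 15914424 to 26799613 counts, and counting error is smallest for the genes with most counts.

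All 10 libraries entered one edgeR 4.0.16 fit with group as the only factor, run in R 4.3.3 with filterByExpr, TMM scaling, 5 residual degrees of freedom and the quasi-likelihood F-test. Benjamini-Hochberg adjustment ran over the 18127 tested genes within each of 11 comparisons, and calls were made at an adjusted p under 0.05. SE stands for standard error, and intervals are 95%. CPM use TMM factors, and TPM were computed from exonic length. Alternatives were DESeq2 1.42.0, limma 3.58.1 (voom), other scalings and filters, a replicate block, a correction for G and C content and length, and leaving out libraries. The members and lists were chosen with earlier results of these data known. Every member is named, the list genes named are the 3 with the smallest adjusted p per comparison, and genes of like profile are given for members whose group means span at least 1 on the log2 scale, by root mean square difference of centred log2 CPM. The correction for G and C content was first run with the scaling factors kept, and re-estimating them was chosen after those results had been seen, so both are given. Proteins were not analysed here.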

Additional observations from a re-analysis of the deposited data

Results flagged for a closer look

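Of the 8 genes, 3 differed in MN1-BEND2 cells from the sum of the changes in MN1 and BEND2 cells, by a test of that difference itself in the edgeR fit of all genes. In the same test 36.9% of all genes were called, so the count of 3 is near the background and is not read as a result. PKNOX1 lay below the sum, with a difference of -0.97 on the log2 scale (edgeR adjusted p = 1.71e-06), and log2 fold changes against CTRL cells of 0.54 in MN1-BEND2, 1.32 in MN1 and 0.18 in BEND2 cells. For PBX3 the difference was -0.50 (edgeR adjusted p = 0.000821), with -0.58, 0.02 and -0.11 in the same order of knockins. For MEIS1 it was -0.42 (edgeR adjusted p = 0.0154), with 0.08, 0.39 and 0.11. This MEIS1 difference missed the threshold by DESeq2 (adjusted p = 0.147) and when certain libraries were left out, as given above. What lies behind these differences was not tested.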

How the results depend on the processing

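Each of the 88 values (8 genes in 11 comparisons) was recomputed under 21 alternatives. Of the recomputed values, 1712 kept their side of the threshold, and their direction wherever a call was made, 77 lost a call, 55 gained one and 4 turned their direction with a call on one side. Turns of sign between values that were not called on either side count among those kept. Differences of PKNOX1 and PBX3 in MN1-BEND2 against CTRL and MN1 cells were called in all alternatives.

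The counts of the 8 genes called moved as follows. With the correction for G and C content and length, 4 were called in MN1-BEND2 against CTRL cells, 3 in MN1-BEND2 against MN1 cells and 0 in MN1-CXXC5 against BEND2 cells. With the scaling factors kept from before that correction these were 4, 3 and 5, and 1 was called in BEND2 against CTRL cells. That first version also moved the split of all called genes, to 2623 higher and 4866 lower in MN1-CXXC5 against MN1 cells (4216 and 4626 before), 5497 and 2875 in MN1-BEND2 against MN1-CXXC5 cells (5645 and 4979), and 1920 and 4604 in MN1-CXXC5 against BEND2 cells (3784 and 4415). In MN1 against BEND2 cells the split was 2224 and 3319 with library totals, 2292 and 3480 without a low-count filter, against 2885 and 2747 in the edgeR fit reported above. MEIS1 in MN1-BEND2 against MN1-CXXC5 cells turned to 0.25 with the correction and 0.33 in its first version, MEIS3 there to -0.044, and MEIS2 in MN1-CXXC5 against BEND2 cells to -0.16 in the first version. By DESeq2, 2 were called in MN1-CXXC5 against CTRL cells, 2 in MN1-BEND2 against MN1 cells, and 1 each in MN1-CXXC5 against MN1, MN1 against BEND2 and MN1-CXXC5 against BEND2 cells. Without a low-count filter 2 were called in BEND2 against CTRL cells and 5 in the comparison with the sum of the unfused parts, and with the groups compared only, 1 in BEND2 against CTRL cells. Except where the construction shows it, the cause was not tested.

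Leaving out libraries gave 2 to 4 calls in MN1-BEND2 against CTRL cells, 2 to 5 in MN1-CXXC5, 1 to 3 in MN1 and 0 to 1 in BEND2 against CTRL cells. Between knockins it gave 3 to 5 in MN1-BEND2 against MN1, 2 to 4 against BEND2, 2 to 4 in MN1-CXXC5 against MN1, 3 to 6 in MN1-BEND2 against MN1-CXXC5, 2 to 4 in MN1 against BEND2, 1 to 2 in MN1-CXXC5 against BEND2 cells, and 2 to 5 in the comparison with the sum. A lone library left in a group is assumed to vary like the other groups. Without CTRL replicate 1 and MN1 replicate 1 the lists against CTRL cells had 0 other TALE genes, 2 HOX genes and 0 target genes called in BEND2 cells, 7 HOX genes in MN1 cells and 3 menin and MLL genes in MN1-CXXC5 cells. For the lists, library totals and the correction were chosen after seeing the data. With library totals 5 menin and MLL genes and 1 target gene were called in BEND2 cells, and with the correction 0 target genes were.

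Libraries with the same replicate number deviated together weakly, with positive correlations in all 10 pairs, from 0.066 to 0.29. The labels do not say whether the number marks a shared batch, and the edgeR fit reported above holds no replicate term. Where the shared deviation comes from was not tested. With a replicate block 2 genes, MEIS2 and PKNOX1, were called in BEND2 against CTRL cells (edgeR adjusted p = 0.029 and 0.0149), and 8 of the 88 values gained a call and none lost one. Over all genes the block raised the number called in each of the 11 comparisons. It went from 2569 to 4159 in BEND2 against CTRL cells and from 5632 to 6820 in MN1 against BEND2 cells.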
